A study of Mus musculus with 39 samples.

Results

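The genes described here are 10 nuclear genes that set how many mitochondria a cell builds and how mitochondrial DNA (mtDNA) is expressed. They are the coactivators Ppargc1a, Ppargc1b and Pprc1, the DNA-binding factors Nrf1, Gabpa and Esrra, the mtDNA transcription machinery Tfam, Tfb2m and Polrmt, and Tfb1m, a relative of Tfb2m. They were chosen by name for these known roles from the 55573 genes of the count tables, all 10 passed the filter on low counts that left 18442 genes, and their levels were set beside the share of each library's counts on the 13 mRNAs encoded in mtDNA. The study asked what leptin receptor signaling in Schwann cells does for metabolism and repair after a crush of the sciatic nerve in C57BL/6 mice, 2 to 4 months old and of both sexes per the methods. RNA came from the distal sciatic nerve endoneurium, the inner nerve compartment that holds axons, Schwann cells, fibroblasts, macrophages and vessels. The crushed nerve is called injured and the uncrushed contralateral nerve healthy. All mice were homozygous for a floxed receptor allele (Leprfl/fl). Lepr-ctrl mice carried no Cre. Lepr-cKO mice (Leprfl/fl::Dhh-Cre) also carried Cre under the Dhh promoter, which is active in the Schwann cell lineage. The paper describes the loss of exon 1 as selective for Schwann cells, which still make a truncated receptor. Whether all other endoneurial cells keep the receptor gene was not tested here. At 2 weeks post crush (2 wpc) there were 5 healthy and 5 injured Lepr-ctrl nerves and 6 healthy and 5 injured Lepr-cKO nerves, and at 4 wpc 5 healthy and 4 injured nerves of each genotype, in all 39 libraries from 22 mice, of which 17 gave both nerves. No mouse was sampled at both times, so the week and the set of mice cannot be told apart. This also holds where the crush responses at 2 and 4 wpc are compared. Single libraries carry their submitted names, in which i or Sni ends the name of an injured and c or Snc that of a healthy nerve, and SLRKO2wpc opens the names of both genotypes at 2 wpc.

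The libraries held 10905806 to 45016322 counts on genes, with a median of 27752451, and the injured Lepr-ctrl nerves at 4 wpc were the shallowest (10905806 to 17640587). Counts over the whole Lepr gene do not show a loss of exon 1, and they were 5.79 to 14.7 CPM (counts scaled to library size) in Lepr-cKO and 5.85 to 10.6 CPM in Lepr-ctrl healthy nerves, and 24.0 to 121 CPM and 20.8 to 71.5 CPM in injured nerves. Myelinating Schwann cell markers fell with injury (8, 9, 10 and 6 of 10 in Lepr-ctrl and Lepr-cKO at 2 wpc and then at 4 wpc). Over all genes tested, 30.2%, 29.2%, 31.2% and 25.8% fell in these comparisons. Macrophage markers rose (8, 7, 9 and 9 of 10) and 1 fell in each comparison, where 33.7%, 35.9%, 32.4% and 29.6% of all genes rose. 3 injured libraries stood apart. In SLRKO2wpc126i (Lepr-cKO), 15 skeletal muscle markers summed to 53305 CPM against at most 48.4 CPM in any other library, and adipocyte markers to 2088 CPM. In KO-169Sni (Lepr-cKO, 4 wpc), mtDNA-encoded mRNAs took only 2.79% of counts while macrophage markers were at 2133 CPM, a level of injured nerves. Its Schwann cell lineage markers (2161 CPM) lay within the range of healthy nerves (1743 to 2574 CPM). Its myelin markers (81188 CPM) were the highest of injured nerves and its fibroblast and perineurial markers (7662 CPM) the highest of all. It held 72 counts of the male gene Ddx3y beside 13547 of the female Xist, where other female libraries held at most 11. The source was not tested. In SLRKO2wpc144i (Lepr-ctrl), mtDNA-encoded mRNAs took 30.5% of counts and myelin markers were the lowest of all (11418 CPM).

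Mitochondria carry their own small circular genome, which encodes core subunits of the respiratory chain, while the enzymes that copy and transcribe it are encoded in the nucleus. POLRMT is the mitochondrial RNA polymerase, TFAM bends the promoter DNA and also packages the genome, and TFB2M opens the promoter so that POLRMT can start. TFB1M, a relative of TFB2M, mainly methylates the small ribosomal RNA of mitochondria, which is needed for their ribosomes. NRF1 and the ETS factor GABPA bind promoters of many nuclear genes for mitochondrial proteins, and the estrogen-related receptor ESRRA (ERR alpha) acts on genes of oxidative metabolism. The PGC-1 coactivators (Ppargc1a, Ppargc1b and Pprc1) bind no DNA themselves and work through these factors. In peripheral nerve, repair Schwann cells and invading macrophages clear myelin after a crush, and axons then regrow and are remyelinated.

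The promoters of Polrmt and Tfb2m, of its relative Tfb1m and of Esrra are shown because NRF1 and GABPA are known for acting at genes of this kind. That of Tfam is described only. RefSeq windows from 250 bases before to 50 bases after a gene's start (build GRCm38.p6) were found for 9 of the 10 genes, with 2 for Nrf1, and were searched on both strands for the letters GCGCATGC (NRF-1), CCGGAAG (the ETS core of GABP) and AAGGTCA (an ERR element), which do not overlap one another. The 250 bases before the start of Polrmt (chr10:79746582-79746831, minus strand), Esrra (chr19:6921809-6922058, minus strand), Tfb2m (chr1:179546277-179546526, minus strand) and Tfb1m (chr17:3557756-3558005, minus strand) read as follows, 5′ to 3′ toward the gene, with matches in capitals.
Polrmt: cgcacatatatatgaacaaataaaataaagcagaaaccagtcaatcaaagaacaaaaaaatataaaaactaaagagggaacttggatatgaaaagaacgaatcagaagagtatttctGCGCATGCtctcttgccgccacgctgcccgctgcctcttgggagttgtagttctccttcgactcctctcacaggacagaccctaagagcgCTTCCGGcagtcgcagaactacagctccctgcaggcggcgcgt
Esrra: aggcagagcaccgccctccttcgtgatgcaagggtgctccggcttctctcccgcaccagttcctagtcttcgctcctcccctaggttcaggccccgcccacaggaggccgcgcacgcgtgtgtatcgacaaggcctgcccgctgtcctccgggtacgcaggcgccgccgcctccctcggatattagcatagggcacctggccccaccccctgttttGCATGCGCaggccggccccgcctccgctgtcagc
Tfb2m: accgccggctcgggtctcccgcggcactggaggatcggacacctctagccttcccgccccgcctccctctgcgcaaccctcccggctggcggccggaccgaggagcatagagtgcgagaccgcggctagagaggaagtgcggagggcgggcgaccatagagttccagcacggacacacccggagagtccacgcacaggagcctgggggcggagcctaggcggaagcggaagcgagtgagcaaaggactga
Tfb1m: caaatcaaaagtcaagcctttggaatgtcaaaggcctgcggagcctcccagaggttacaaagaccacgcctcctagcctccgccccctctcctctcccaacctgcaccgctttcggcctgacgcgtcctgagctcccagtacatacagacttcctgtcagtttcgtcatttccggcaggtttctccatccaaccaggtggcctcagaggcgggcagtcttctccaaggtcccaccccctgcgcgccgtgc

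Polrmt held both an NRF-1 match, 133 bases before the start, and an ETS match, 43 bases before it. Esrra held an NRF-1 match 34 bases before its start, Tfb2m one at base 13 after its start (not in the stretch shown), and Tfam and Gabpa each an ETS match, 47 and 93 bases before the start. No letters searched were found for Tfb1m. The NRF-1 letters stood in 3 of the 10 windows and in 2.71% of all 32851 promoters of the same length, the ETS letters in 3 of 10 and 8.86%, and the ERR letters in none of 10 and 4.72%. A match describes the letters and was not linked to any change below.

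Levels between genes were compared per exon length, as CPM per kilobase. In healthy Lepr-ctrl nerves at 2 wpc, Esrra was the highest (11.1 ± 3.43, SD, n = 5) and Gabpa the next (9.81 ± 1.53), with overlapping ranges. Tfam (5.70 ± 0.32) and Polrmt (4.72 ± 0.59) followed, also overlapping, then Pprc1 (3.71 ± 0.32), Nrf1 (3.15 ± 0.16) and Tfb1m (2.28 ± 0.11), each apart from its neighbors. Tfb2m (1.35 ± 0.13) and Ppargc1a (0.84 ± 0.32) overlapped, and Ppargc1b was the lowest (0.21 ± 0.039). Ppargc1b was also thinly counted, with 8 to 139 counts per library. The first and last places were the same in injured Lepr-ctrl nerves at 2 wpc, but Pprc1 (6.96 ± 1.57) stood beside Tfam and Polrmt with overlapping ranges, and the mean of Tfb1m (1.25 ± 0.096) was below that of Tfb2m (1.53 ± 0.28), the ranges of both overlapping that of Ppargc1a.

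**Figure D1:**
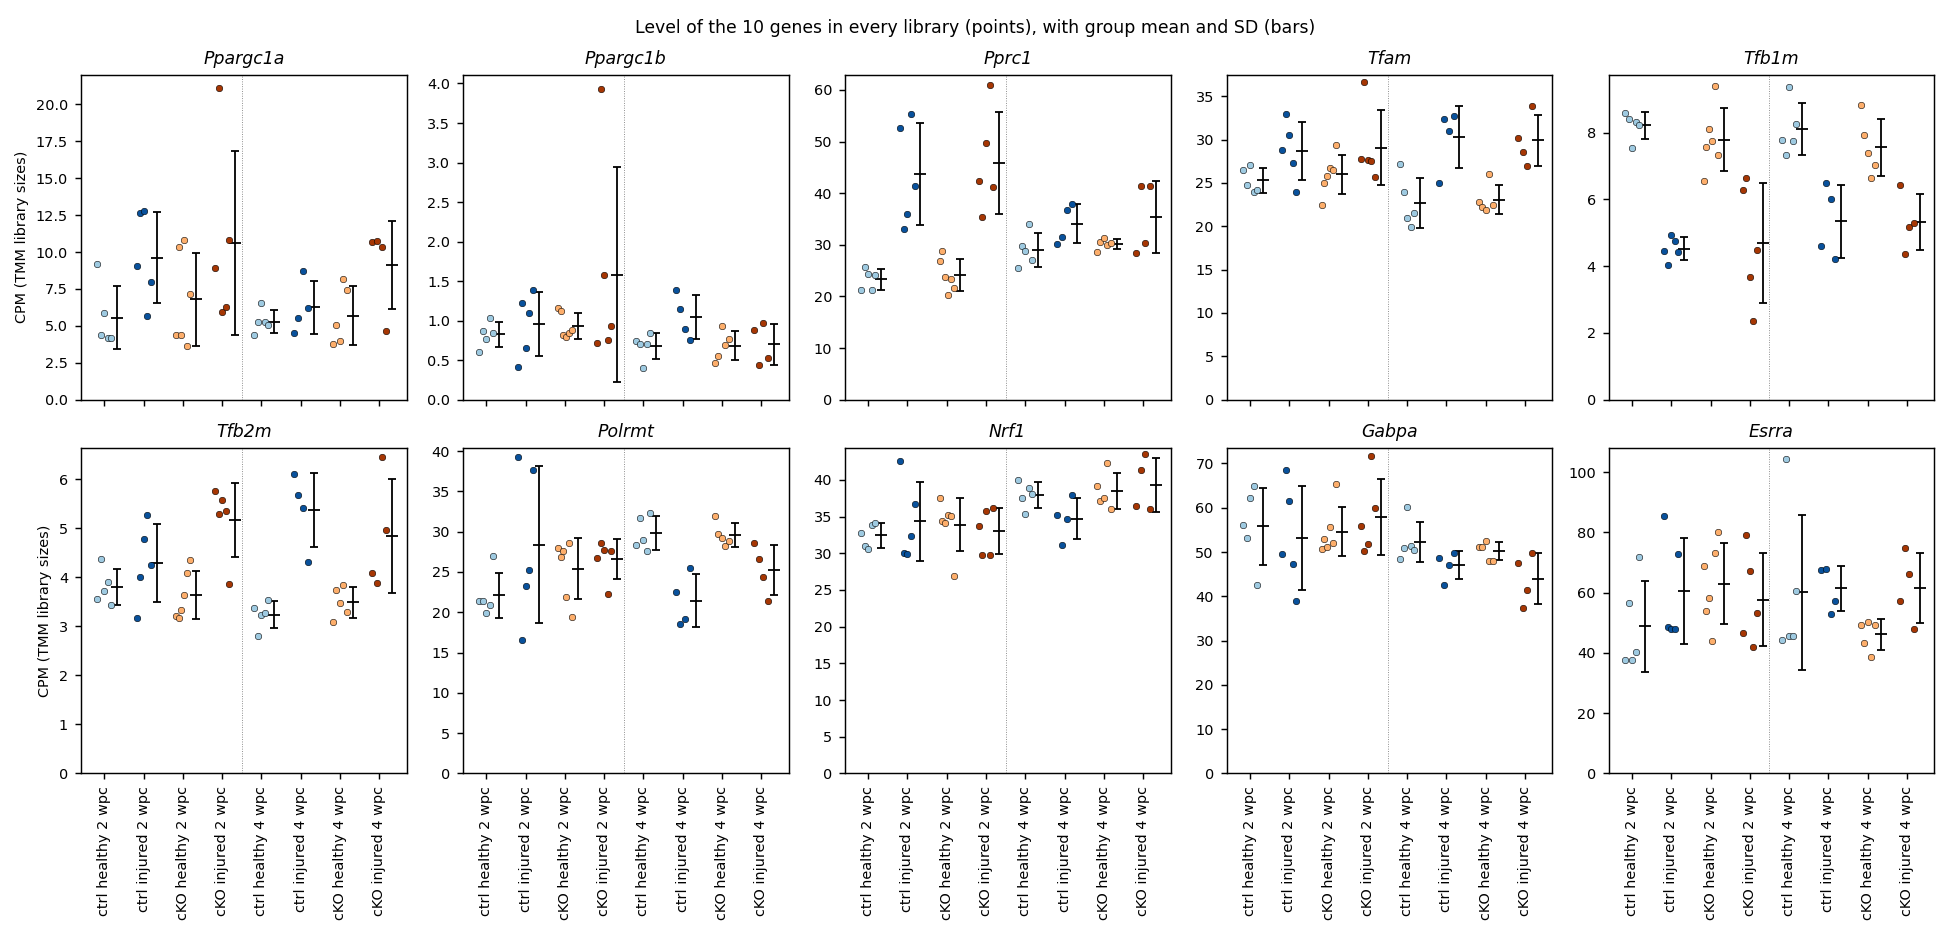
Level of each of the 10 genes in CPM (vertical axis, linear, from 0) in all 39 libraries, by genotype, nerve and week. Points are libraries, horizontal bars group means and vertical bars SD. Pprc1 is higher in injured nerves at 2 wpc, Tfb1m is lower in injured nerves at both times, and 1 injured Lepr-cKO library (SLRKO2wpc126i) stands alone for Ppargc1a (21.1 CPM), Ppargc1b (3.93 CPM) and Tfam (36.7 CPM).

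The main question was which of these genes change when the nerve is injured. In Lepr-ctrl nerves at 2 wpc, 3 of the 10 rose (Pprc1, Ppargc1a and Polrmt) and 1 fell (Tfb1m), against 33.7% of all genes tested that rose and 30.2% that fell (edgeR quasi-likelihood test, Benjamini-Hochberg adjusted p under 0.05). In Lepr-cKO nerves at 2 wpc, 3 rose (Pprc1, Tfb2m and Ppargc1b) and 1 fell (Tfb1m), against 35.9% and 29.2%. In Lepr-ctrl nerves at 4 wpc, 2 rose (Tfam and Tfb2m) and 2 fell (Tfb1m and Polrmt), against 32.4% and 31.2%. In Lepr-cKO nerves at 4 wpc, 2 rose (Tfam and Tfb2m) and 1 fell (Tfb1m), against 29.6% and 25.8%. The shares among the 10 genes, 30% or less in each direction, were thus no larger than over all genes. With the further limit of an absolute log2 fold change over 1, none of the 10 passed in any of the 4 comparisons (1 did, Ppargc1a in Lepr-ctrl mice at 2 wpc, with the mouse as a replicate block), where 34.1%, 34.3%, 36% and 27.6% of all genes did. The median log2 fold change of the 10 was 0.20, 0.12, 0.13 and 0.14, beside 0.08, 0.10, 0.02 and 0.06 over all genes. In bulk samples, fewer cells of a type and less RNA per cell cannot be told apart.

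**Figure D2:**
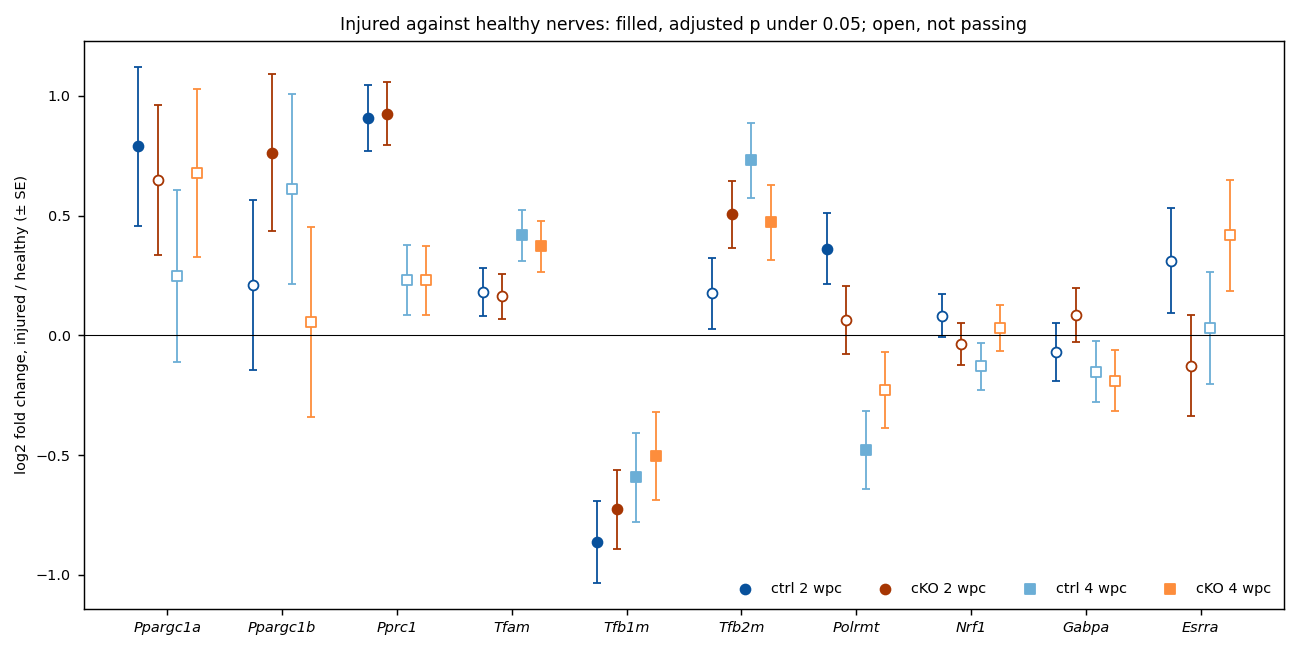
Log2 fold change of injured against healthy nerves with its SE (vertical axis) for each of the 10 genes, circles at 2 wpc and squares at 4 wpc, blue for Lepr-ctrl and brown or orange for Lepr-cKO, filled where the adjusted p is under 0.05. Tfb1m lies below 0 in all 4 comparisons, Pprc1 near 0.9 at 2 wpc only, and all changes lie within 1 of 0.

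Tfb1m was the only one of the 10 that passed in all 4 comparisons, and it fell in each. Of all genes, 30.2%, 29.2%, 31.2% and 25.8% fell in the single comparisons, and how many fell in all 4 was not counted. Nor was it counted, here or for the genes below, how many genes separate the groups or move 1 way in all mice. In Lepr-ctrl mice at 2 wpc Tfb1m was at 8.58, 8.40, 7.55, 8.32 and 8.23 CPM in healthy and 4.46, 4.03, 4.93, 4.75 and 4.43 CPM in injured nerves. The groups did not overlap, and the log2 fold change was -0.86 ± 0.17 (SE, adjusted p = 5.01e-05). At 2 wpc the 6 healthy Lepr-cKO nerves ranged from 6.56 to 9.39 CPM with a median of 7.66, and the 5 injured were at 6.28, 6.64, 3.67, 2.35 and 4.50 CPM. These overlapped only through SLRKO2wpc126i, at 6.64 CPM, and the change was -0.73 ± 0.16 (adjusted p = 0.000252). At 4 wpc the Lepr-ctrl values were 7.78, 7.33, 9.36, 7.75 and 8.25 CPM in healthy and 4.62, 6.50, 6.02 and 4.22 CPM in injured nerves, a log2 fold change of -0.59 ± 0.19 (adjusted p = 0.00602). The Lepr-cKO values at 4 wpc were 8.82, 7.91, 7.39, 6.65 and 7.02 CPM against 6.43, 4.38, 5.18 and 5.28 CPM, a change of -0.50 ± 0.18 (adjusted p = 0.0197). Neither group pair at 4 wpc overlapped. The last call was lost without KO-169Snc (adjusted p = 0.0522) or KO-175Sni (adjusted p = 0.0663). Tfb1m was lower in the injured nerve of all 17 mice with both nerves. Tfb1m (chromosome 17, 3519256 to 3557781, minus strand, GRCm38) overlaps Tiam2 and Cldn20 on the opposite strand, and reads of such genes cannot be told apart where strand is not used.

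Tfb2m (chromosome 1, 179528055 to 179546267, minus strand), the initiation factor, rose in 3 of the 4 comparisons. It did not pass in Lepr-ctrl mice at 2 wpc, at 3.55, 4.37, 3.73, 3.90 and 3.43 CPM in healthy and 3.16, 3.99, 4.77, 5.27 and 4.25 CPM in injured nerves (log2 fold change 0.18 ± 0.15, adjusted p = 0.302). At 2 wpc Lepr-cKO nerves rose from a median of 3.49 CPM (3.17 to 4.36, n = 6) to 5.76, 5.28, 5.58, 5.34 and 3.85 CPM, by 0.51 ± 0.14 (adjusted p = 0.00201). All but SLRKO2wpc138i exceeded every healthy nerve. At 4 wpc it rose in Lepr-ctrl mice from 3.37, 2.79, 3.22, 3.28 and 3.53 CPM to 6.10, 5.67, 5.40 and 4.32 CPM, by 0.73 ± 0.16 (adjusted p = 0.000156). In Lepr-cKO mice it rose from 3.08, 3.74, 3.47, 3.84 and 3.30 CPM to 4.08, 3.88, 6.45 and 4.96 CPM, by 0.47 ± 0.16 (adjusted p = 0.0111). Healthy and injured groups did not overlap at 4 wpc, but the Lepr-cKO call was lost without KO-176Sni (0.29, adjusted p = 0.127) and with the mouse as a replicate block (0.43, adjusted p = 0.0882). Over all groups, 15 of 17 mice had more Tfb2m in the injured nerve.

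The ratio of Tfb2m to Tfb1m, as counts per exon length within a library, needs no scaling between libraries and was looked at after the values of both genes were seen, so no test was run on it. It was 0.443 to 0.766 in the 21 healthy and 0.816 to 2.92 in the 18 injured nerves. The ranges of all healthy and all injured libraries did not overlap, and the injured nerve had the higher ratio in 17 of 17 mice, by 1.36 to 4.84 times with a median of 2.07. With Tfb1m lower in 17 and Tfb2m higher in 15 of these 17 mice, the ratio largely restates both changes and is no separate support. How many other gene pairs separate the nerves in this way was not counted. The group means of the ratio were 0.595 ± 0.061 (SD) and 1.22 ± 0.19 in Lepr-ctrl and 0.605 ± 0.088 and 1.64 ± 0.81 in Lepr-cKO nerves at 2 wpc. At 4 wpc they were 0.517 ± 0.049 and 1.32 ± 0.26, and 0.602 ± 0.10 and 1.19 ± 0.32. The highest value (2.92) was that of SLRKO2wpc135i and the lowest injured value (0.816) that of KO-169Sni, both Lepr-cKO.

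**Figure D3:**
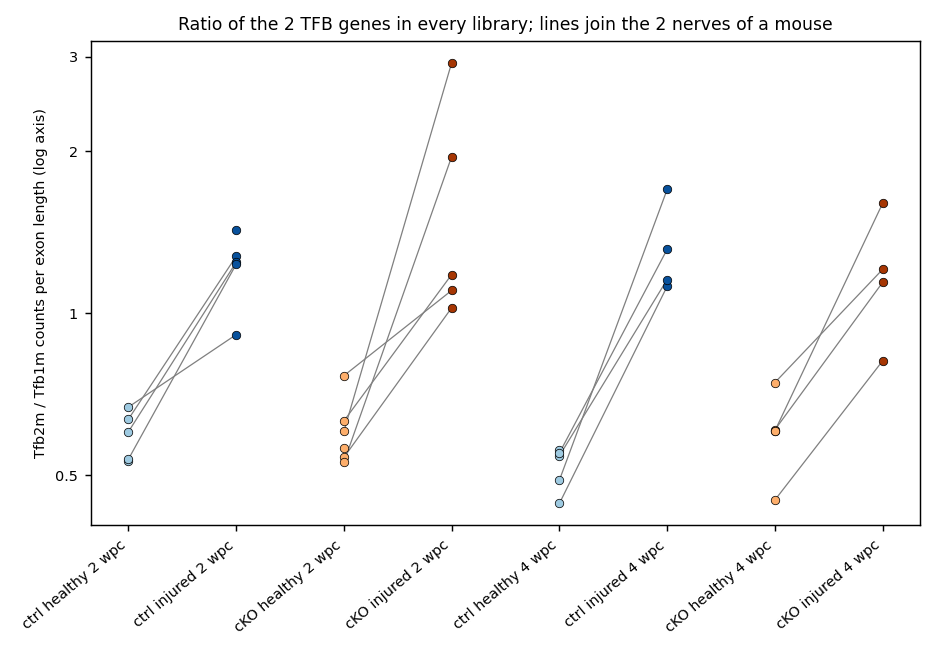
Ratio of Tfb2m to Tfb1m counts per exon length (vertical axis, log scale) in all 39 libraries by group, with lines joining the healthy and injured nerve of a mouse. All 21 healthy nerves lie at or below 0.766, all 18 injured nerves at or above 0.816, and all 17 lines rise.

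Tfam (chromosome 10, 71225464 to 71238280, minus strand), which packages mtDNA and is required for its transcription, rose at 4 wpc in both genotypes. In Lepr-ctrl mice it went from 27.2, 23.9, 20.9, 19.9 and 21.5 CPM to 25.0, 32.4, 31.0 and 32.8 CPM, a log2 fold change of 0.42 ± 0.11 (adjusted p = 0.000997). In Lepr-cKO mice it went from 22.8, 22.2, 21.8, 26.0 and 22.5 CPM to 30.2, 28.6, 26.9 and 33.9 CPM, by 0.37 ± 0.11 (adjusted p = 0.00342). The Lepr-cKO groups did not overlap, and the Lepr-ctrl groups overlapped through WT-168Snc and WT-170Sni. At 2 wpc the changes were 0.18 ± 0.10 (adjusted p = 0.112) in Lepr-ctrl and 0.16 ± 0.10 (adjusted p = 0.134) in Lepr-cKO mice. The difference between the times did not pass in either genotype (0.24 ± 0.15, adjusted p = 0.326, and 0.21 ± 0.14, adjusted p = 0.54). Tfam was higher in the injured nerve of 15 of 17 mice. By the rank correlation over all 39 libraries, the genes most like Tfam were Psma1 (rho 0.85), Prrx1 (0.84) and Commd8 (0.83), given as a description over libraries that share an injury effect.

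Polrmt (chromosome 10, 79736123 to 79746581, minus strand), the polymerase itself, rose in 1 comparison and fell in another. In Lepr-ctrl mice at 2 wpc it was at 21.4, 21.4, 19.9, 20.8 and 26.9 CPM in healthy and 39.2, 16.6, 23.3, 25.3 and 37.6 CPM in injured nerves, a rise of 0.36 ± 0.15 on the log2 scale (adjusted p = 0.0335). The rise was carried by SLRKO2wpc123i and SLRKO2wpc147i and was lost without either (0.20, adjusted p = 0.239, and 0.25, adjusted p = 0.144), without SLRKO2wpc120c, SLRKO2wpc123c, SLRKO2wpc130c or SLRKO2wpc131c (adjusted p = 0.051 to 0.0665), in a fit of only the groups compared (adjusted p = 0.148) and with the mouse as a replicate block (0.31, adjusted p = 0.0575). At 4 wpc it fell in Lepr-ctrl mice from 28.4, 31.8, 28.9, 27.6 and 32.4 CPM to 22.6, 18.5, 19.1 and 25.5 CPM, with no overlap (-0.48 ± 0.16, adjusted p = 0.0101). Healthy Lepr-ctrl nerves were also higher at 4 wpc (27.6 to 32.4 CPM) than at 2 wpc (19.9 to 26.9 CPM). In Lepr-cKO mice the changes were 0.07 ± 0.14 at 2 wpc (adjusted p = 0.697) and -0.23 ± 0.16 at 4 wpc (adjusted p = 0.222), the injured nerve being lower in 4 of 4 mice at 4 wpc. The crush response at 4 wpc minus that at 2 wpc was -0.84 ± 0.22 in Lepr-ctrl mice (adjusted p = 0.0131, with 9.1% of all genes passing) and -0.30 ± 0.21 in Lepr-cKO mice (adjusted p = 0.568, with 2.09% passing).

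Among the coactivators, Pprc1 (chromosome 19, 46044886 to 46072915, plus strand), a serum-responsive relative of PGC-1 alpha, rose in both genotypes at 2 wpc. In Lepr-ctrl mice it was at 21.2, 25.7, 24.4, 21.2 and 24.1 CPM in healthy and 52.6, 33.1, 36.1, 55.3 and 41.4 CPM in injured nerves, 1.87 times higher (log2 fold change 0.91 ± 0.14, adjusted p = 6.51e-07). In Lepr-cKO mice it went from a median of 23.6 CPM (20.4 to 28.9, n = 6) to 42.4, 35.3, 49.8, 61.0 and 41.1 CPM (0.93 ± 0.13, adjusted p = 1.58e-07). Neither comparison had overlapping groups, and all 9 mice with both nerves at 2 wpc had more Pprc1 in the injured one. At 4 wpc the changes were 0.23 ± 0.15 (adjusted p = 0.163) and 0.23 ± 0.14 (adjusted p = 0.177), with injured nerves at 30.2, 31.5, 36.8 and 37.8 CPM and at 28.4, 41.4, 30.5 and 41.5 CPM. Healthy nerves at 4 wpc were at 25.4, 29.7, 28.8, 34.1 and 27.1 CPM and at 28.6, 30.6, 31.3, 29.97 and 30.4 CPM. The healthy means were thus higher at 4 wpc (29.0 ± 3.27 and 30.2 ± 0.97, SD) than at 2 wpc (23.3 ± 2.04 and 24.2 ± 3.19), while the injured means were lower at 4 wpc (34.1 ± 3.80 and 35.4 ± 6.98) than at 2 wpc (43.7 ± 9.89 and 45.9 ± 9.86). The crush response was lower at 4 than at 2 wpc by -0.68 ± 0.20 in Lepr-ctrl mice (adjusted p = 0.0281) and by -0.70 ± 0.19 in Lepr-cKO mice (adjusted p = 0.05002, just over the threshold). Different mice were used at 2 and 4 wpc, so week and set of mice cannot be told apart here. The Lepr-ctrl call was lost without WT-173Snc, WT-170Sni, WT-171Sni or SLRKO2wpc123i (adjusted p = 0.056 to 0.0683) and with the mouse as a replicate block (-0.57, adjusted p = 0.11), and the Lepr-cKO value passed with DESeq2 (adjusted p = 0.0253). Pprc1 overlaps Ldb1 on the opposite strand.

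Ppargc1a (chromosome 5, 51454250 to 51567726, minus strand), which encodes PGC-1 alpha, the best-known inducer of mitochondrial biogenesis, rose in Lepr-ctrl mice at 2 wpc. In Lepr-ctrl mice at 2 wpc it was at 9.16, 4.40, 5.89, 4.19 and 4.18 CPM in healthy and 9.07, 12.7, 12.8, 5.65 and 7.95 CPM in injured nerves. The groups overlapped, the injured nerve was higher in 4 of 4 mice with both nerves, and the change was 0.79 ± 0.33 (adjusted p = 0.0368). With the mouse as a replicate block it was 1.17 ± 0.32 (adjusted p = 0.00457), larger than that of Pprc1 in the same fit (0.76 ± 0.16). Without the block it was lost without SLRKO2wpc123c, SLRKO2wpc131c, SLRKO2wpc147c, SLRKO2wpc130i or SLRKO2wpc131i (adjusted p = 0.0759 to 0.0875). At 2 wpc Lepr-cKO mice had a median of 5.78 CPM (3.67 to 10.8, n = 6) in healthy nerves and 8.93, 21.1, 5.91, 6.26 and 10.8 CPM in injured ones (0.65 ± 0.31, adjusted p = 0.0685). The value of 21.1 CPM was that of SLRKO2wpc126i, the library with high skeletal muscle and adipocyte markers, and without it the change was 0.25 (adjusted p = 0.465). The part of either tissue in this value was not tested. At 4 wpc Lepr-ctrl nerves were at 4.37, 5.25, 6.54, 5.25 and 5.05 CPM healthy and 4.53, 5.55, 8.75 and 6.20 CPM injured (0.25 ± 0.36, adjusted p = 0.561). Lepr-cKO nerves at 4 wpc were at 3.79, 5.09, 3.96, 8.20 and 7.44 CPM and at 10.7, 10.7, 10.4 and 4.63 CPM (0.68 ± 0.35, adjusted p = 0.10, and 0.82, adjusted p = 0.0476, with the mouse as a replicate block). In that group 3 of 4 injured nerves exceeded every healthy one and KO-177Sni did not.

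Ppargc1b, the closest relative of Ppargc1a, was called in 1 comparison only, in Lepr-cKO mice at 2 wpc (0.76 ± 0.33, adjusted p = 0.0409). The injured nerves were at 0.720, 3.93, 1.58, 0.758 and 0.931 CPM and the healthy ones at 0.790 to 1.16 CPM with a median of 0.859. The call rested on SLRKO2wpc126i (3.93 CPM). Without it the change was 0.10 (adjusted p = 0.767), and 3 of the 10 genes passed in that comparison. It was also lost without SLRKO2wpc128c, SLRKO2wpc135c, SLRKO2wpc136c or SLRKO2wpc138c (adjusted p = 0.055 to 0.0693), in a fit of only the groups compared (adjusted p = 0.131) and with the mouse as a replicate block (0.44, adjusted p = 0.306). In the other 3 comparisons the change was 0.21 ± 0.36, 0.61 ± 0.40 and 0.06 ± 0.40.

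Of the DNA-binding factors, Nrf1, Gabpa and Esrra passed in none of the 4 injury comparisons. Nrf1 was at 26.9 to 42.4 CPM in healthy and 29.8 to 43.5 CPM in injured nerves, and its log2 fold changes ran from -0.13 to 0.08 with SEs of 0.09 to 0.10. Gabpa was at 42.6 to 65.4 CPM and 37.3 to 71.7 CPM, with changes of -0.19 to 0.08. In Lepr-ctrl mice at 4 wpc both were lower in the injured nerve of 4 of 4 mice, with adjusted p = 0.245 for Nrf1 and 0.301 for Gabpa. Esrra was the most scattered, at 37.7 to 104 CPM in healthy and 42.0 to 85.5 CPM in injured nerves, with changes of -0.13 to 0.42 and SEs of 0.21 to 0.23. Its highest value was that of WT-170Snc. Gabpa overlaps Atp5j and Esrra overlaps Trmt112, both protein-coding genes on the opposite strand.

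The mRNAs encoded in mtDNA were measured in the same libraries, as their share of all gene counts. Only 7 of the 13 such mRNAs were counted (mt-Co1, mt-Cytb, mt-Nd1, mt-Nd4, mt-Nd2, mt-Nd6 and mt-Nd5), and the other 6 had at most 2 counts in any library. In healthy nerves the share was 2.01% ± 0.12 (SD, n = 5) in Lepr-ctrl and 2.02% ± 0.20 (n = 6) in Lepr-cKO nerves at 2 wpc, and 1.84% ± 0.21 and 2.36% ± 0.70 (n = 5 each) at 4 wpc. In injured nerves at 2 wpc it was 13.8% ± 9.44 (7.78% to 30.5%, n = 5) and 15.4% ± 8.42 (5.30% to 28.1%, n = 5). At 4 wpc it was 17.9% ± 1.97 (14.996% to 19.1%, n = 4) and 10.2% ± 6.30 (2.79% to 18.04%, n = 4). The groups did not overlap except in Lepr-cKO mice at 4 wpc, where KO-169Sni (2.79%) lay below KO-177Snc (3.61%). Injured minus healthy was 11.7, 13.4, 16.1 and 7.81 percentage points (exact two-sided permutation tests, p = 0.00794, 0.00433, 0.0159 and 0.0317, adjusted over 6 comparisons p = 0.0238, 0.0238, 0.0317 and 0.0476). The first 3 are the smallest p these group sizes allow. All 7 counted mRNAs also rose in edgeR in each comparison, with a median log2 fold change of 2.69 and 2.81 at 2 wpc and 3.25 and 1.98 at 4 wpc. No gene among the 10 reached an absolute change of 1 in the same comparisons and the same fit. mt-Nd6 lies on the other strand from mt-Nd5 and overlaps its end, so their reads there cannot be told apart where strand is not used.

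**Figure D4:**
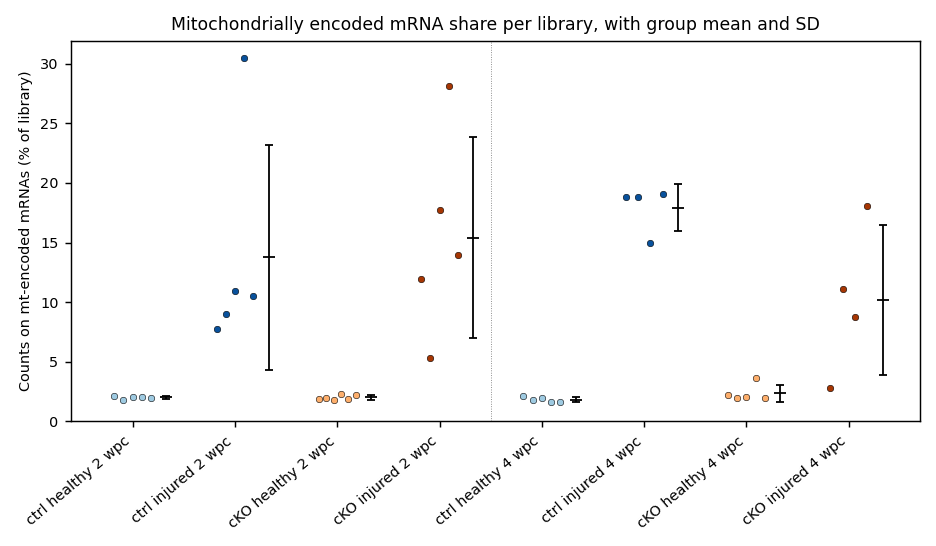
Share of a library's gene counts on mtDNA-encoded mRNAs (vertical axis, percent, from 0) in all 39 libraries by group, with group means and SD. Healthy nerves sit between 1.64% and 3.61% and injured nerves between 2.79% and 30.5%.

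The level of each of the 10 genes was then set against this share within the 18 injured nerves, 1 per mouse, on log2 scales and with library sizes that leave out the mtDNA-encoded genes. Healthy and injured nerves form separate clusters, so no pooled value was computed. Ppargc1a was lower where the share was higher, with Pearson r = -0.72 (permutation p = 0.00108, adjusted over the 10 genes p = 0.0108) and Spearman rho = -0.76 (permutation p = 0.00047, adjusted p = 0.0047). Without the 2 libraries farthest from the median share r was -0.75, after subtraction of group means -0.75, without SLRKO2wpc126i -0.66, among the 10 nerves at 2 wpc -0.84 (permutation p = 0.00229) and among the 8 at 4 wpc -0.71 (exact permutation p = 0.00709). In the 21 healthy nerves, where the share spans little, r was 0.40 (permutation p = 0.0663, adjusted p = 0.175), with 0.74 among 11 nerves at 2 wpc (permutation p = 0.0115) and 0.39 among 10 at 4 wpc (permutation p = 0.292). None of the other 9 genes passed the adjustment. How many of all genes tested have an r with the share like that of Ppargc1a was not counted. Several lists of cell type markers also moved with the share, as given below. Pprc1 had r = 0.50 (permutation p = 0.0325, adjusted p = 0.145) and rho = 0.34, and Tfb1m r = -0.49 (permutation p = 0.0435, adjusted p = 0.145) and rho = -0.27, and both rs weakened without the 2 farthest libraries (0.35 and -0.27). For the remaining 7 genes r lay between -0.38 and 0.37.

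Some lists of cell type markers moved with the share, with Ppargc1a or with both over the same 18 nerves. Of 9 marker lists, each summed without the mtDNA-encoded genes in the library size, fibroblast and perineurial markers had r = -0.84 with the mtDNA share (permutation p = 2e-05, adjusted over 9 lists p = 0.00018, rho = -0.73, -0.74 without the 2 farthest libraries) and 0.67 with Ppargc1a (permutation p = 0.00232, adjusted p = 0.0209, rho = 0.64, 0.66 without the 2 farthest). Their sum ranged from 2311 to 7662 CPM in injured and 3381 to 6514 CPM in healthy nerves. Macrophage markers had r = 0.56 with the share (permutation p = 0.0155, adjusted p = 0.0348, rho = 0.60) and -0.62 with Ppargc1a (permutation p = 0.00685, adjusted p = 0.0308, rho = -0.52). They summed to 939 to 4429 CPM in injured and 127 to 442 CPM in healthy nerves. Myelinating Schwann cell markers had r = -0.72 with the share (permutation p = 0.00111, adjusted p = 0.00333, rho = -0.67) and 0.38 with Ppargc1a (permutation p = 0.124, adjusted p = 0.159, rho = 0.44). Schwann cell lineage markers had r = -0.77 with the share (permutation p = 0.00023, adjusted p = 0.00103, rho = -0.72) and 0.44 with Ppargc1a (permutation p = 0.0709, adjusted p = 0.106, rho = 0.51). Repair Schwann cell markers had r = -0.53 with the share (permutation p = 0.0224, adjusted p = 0.0404, rho = -0.52), and -0.26 without the 2 farthest libraries, so that this relation rests on them, and 0.56 with Ppargc1a (permutation p = 0.0152, adjusted p = 0.0456, rho = 0.64). No marker of these 5 lists was at 0 throughout. Each list is a sum whose members can differ. With injury in Lepr-ctrl nerves at 2 wpc, 1 fibroblast and perineurial marker rose and 4 of 8 fell. In the same comparison 1 lineage marker rose and 2 of 5 fell (33.7% of all genes rose and 30.2% fell). The part of the markers in the relation of Ppargc1a to the share was not tested. The remaining lists passed with neither measure. Skeletal muscle, adipocyte, endothelial and pericyte, and proliferation markers had r = -0.29, -0.15, 0.35 and -0.17 with the share. With Ppargc1a they had r = 0.57 (rho = 0.12), 0.27, -0.18 and 0.45. The genes most like Ppargc1a by rank correlation over all 39 libraries were Flrt2 (rho 0.85), Clstn2 (0.84) and Slc22a3 (0.83).

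**Figure D5:**
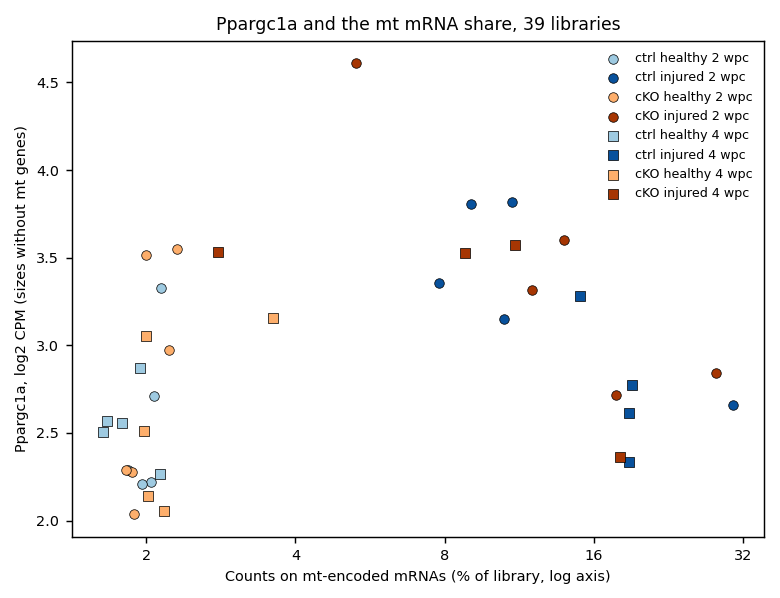
Ppargc1a in log2 CPM with library sizes that leave out mtDNA-encoded genes (vertical axis) against the share of counts on mtDNA-encoded mRNAs (horizontal axis, percent, log scale) in 39 libraries, circles at 2 wpc and squares at 4 wpc. Healthy nerves form a cluster at 1.64% to 3.61%, and among the 18 injured nerves Ppargc1a falls as the share rises (r = -0.72), the highest point being SLRKO2wpc126i.

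The genotype comparisons ask whether loss of the Schwann cell leptin receptor changed these genes. None of the 10 passed in Lepr-cKO against Lepr-ctrl nerves, whether injured at 2 wpc (0.58% of all genes passed), injured at 4 wpc (1.31%), healthy at 2 wpc (0.0108%) or healthy at 4 wpc (0.00542%), by edgeR or DESeq2. At an unadjusted p under 0.05 there was 1, Ppargc1b in injured nerves at 2 wpc (0.73 ± 0.35, adjusted p = 0.754), the gene whose injury call rested on SLRKO2wpc126i. Of all 18442 genes tested, 1187 were at such a p in that comparison. In injured nerves the difference was 0.14 ± 0.33 at 2 wpc and 0.54 ± 0.38 at 4 wpc for Ppargc1a, 0.02 ± 0.10 and -0.02 ± 0.11 for Tfam, 0.06 ± 0.17 and -0.01 ± 0.20 for Tfb1m, and 0.27 ± 0.15 and -0.15 ± 0.17 for Tfb2m. For Pprc1, Polrmt, Nrf1, Gabpa and Esrra it ran from -0.09 to 0.24, and in healthy nerves the 10 genes ran from -0.38 to 0.37. The difference between the genotypes in the crush response itself passed for none of the 10 at either time, with 0% of all genes passing. None of the 10 was at an unadjusted p under 0.05, where 797 and 2013 of all 18442 genes were at 2 and 4 wpc. Such values do not show that the genotypes are alike. For Ppargc1a that difference was -0.14 ± 0.46 at 2 wpc and 0.43 ± 0.50 at 4 wpc. The mtDNA share in injured nerves differed by 1.65 percentage points at 2 wpc (exact permutation p = 0.714) and by -7.77 at 4 wpc (exact permutation p = 0.0571, adjusted p = 0.0686, smallest possible p = 0.0286), and at 4 wpc by -5.31 without KO-169Sni (adjusted p = 0.137). None of the 7 counted mtDNA-encoded mRNAs passed between genotypes in edgeR. In injured nerves at 4 wpc 6 of 7 were at an unadjusted p under 0.05 (median log2 difference -0.92), as were all 7 for the genotype difference in the crush response at 4 wpc (median -1.27). Of all 18442 genes tested, 3667 were at such a p in the first comparison and 2013 in the second. None of the 7 passed for the difference between the times (median 0.57 for Lepr-ctrl, -0.89 for Lepr-cKO). In the same injured nerves at 4 wpc, beside the same 3667 of 18442 genes, 8 of 10 myelinating Schwann cell markers (median 0.76) and 6 of 10 macrophage markers (median -0.73) were at an unadjusted p under 0.05, and none passed. Their part in the share was not tested.

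The wider pathway was described with 4 lists, whose counts stand beside the shares of all genes in the same comparisons, 33.7%, 35.9%, 32.4% and 29.6% that rose and 30.2%, 29.2%, 31.2% and 25.8% that fell. The counts for RNA processing lie near or below these shares, and nothing particular to any list is read from its counts. Of 20 genes of mtDNA replication and the nucleoid, 11 rose and 4 fell in Lepr-ctrl nerves at 2 wpc, 7 and 5 in Lepr-cKO nerves, and 9 and 6, then 10 and 3, at 4 wpc. The median log2 fold change was 0.23, 0.09, 0.23 and 0.21. Twnk, the mtDNA helicase, rose in all 4 comparisons (0.82, 0.75, 0.56 and 0.75). Dna2, a helicase-nuclease of mitochondria and the nucleus, rose the most (2.32, 2.24, 1.85 and 1.39), beside proliferation markers of which 7, 7, 5 and 7 of 8 rose, with sums of 49.7 to 246 CPM in injured and 35.9 to 48.3 CPM in healthy nerves, and Primpol, a primase-polymerase, rose by 0.70, 0.73, 1.26 and 0.68. The part of proliferation in the rise of Dna2 was not tested. Rrm2b, a ribonucleotide reductase subunit of resting cells that supplies nucleotides for mtDNA, fell the most (-1.76, -1.66, -1.17 and -1.26). Mpv17 (-0.88, -0.81, -0.53 and -0.44) and Lig3, the mtDNA ligase (-0.84, -0.91, -0.87 and -0.82), fell as well.

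Of 6 genes for elongation and termination of mtDNA transcription, 3, 4, 5 and 5 rose and none fell, with medians of 0.36, 0.60, 0.68 and 0.61. Mterf1a (0.70, 0.88, 0.73 and 0.94) and Mterf1b (0.98, 1.06, 1.07 and 1.25), termination factors that are near-identical copies and whose reads are therefore uncertain, and Mterf3 (0.47, 0.69, 0.73 and 0.76) rose in all 4. Of 28 genes for processing and stability of mitochondrial RNA, 7, 11, 9 and 9 rose and 5, 5, 7 and 3 fell, with medians of 0.06, 0.18, 0.19 and 0.12. Pnpt1, a mitochondrial RNA exonuclease, rose (0.84, 0.94, 0.53 and 0.65), as did Fastk (0.89, 0.69, 0.36 and 0.41) and Tbrg4 (0.84, 0.74, 0.40 and 0.33). Hsd17b10, a subunit of mitochondrial RNase P, fell (-0.77, -0.81, -0.28 and -0.36), and so did Ptcd1 (-0.28, -0.46, -0.61 and -0.43).

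Of 30 partners and upstream regulators of the coactivators, 29 were tested, and 13, 12, 8 and 8 rose and 8, 10, 8 and 7 fell, with medians of 0.19, 0.04, 0.12 and 0.01. Ppara, which drives fatty acid oxidation genes with PGC-1 alpha, fell (-3.53, -2.80, -2.44 and -2.62), and Pparg, the adipocyte and macrophage receptor that gave PGC-1 its name, rose (3.32, 2.13, 4.30 and 2.73). Adipocyte markers, some of which share cells with Pparg, rose for 9, 2, 9 and 2 of 9 tested, with sums of 36.7 to 2088 CPM in injured and 9.89 to 286 CPM in healthy nerves, and their part in the Pparg values was not tested. Myc, a growth factor response gene, rose (1.97, 2.09, 1.42 and 1.32). Of the subunits of AMPK, the energy-sensing kinase upstream of PGC-1 alpha, Prkaa1 rose (0.97, 1.14, 0.82 and 0.66) and Prkab2 fell (-2.05, -1.56, -1.97 and -1.54). Prkab1 (0.93, 0.88, 0.97 and 0.78) and Prkag2 (0.90, 0.96, 1.57 and 0.96), named after their values were seen, also rose in all 4. Lpin1, a coactivator of Ppara, also fell (-1.29, -1.23, -1.19 and -1.11). Between genotypes, 2 of the 29 passed, in injured nerves at 2 wpc. These were Prkaa2 (3.14, adjusted p = 0.0131) and Perm1 (2.24, adjusted p = 0.033), both known from muscle. In SLRKO2wpc126i they were at 66.4 and 98.6 CPM, against 0.617 to 3.67 and 2.38 to 7.72 CPM in the other 38 libraries, and without that library the differences were 0.10 (adjusted p = 0.978) and 0.08 (adjusted p = 0.979). The part of muscle in these values was not tested.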

How the data were processed

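The authors sequenced single-end 50 bp reads from TruSeq RNA v2 libraries. Alignment was by STAR 2.5 against GRCm38, with up to 2 mismatches. They counted reads per gene with featureCounts 1.5.0-p1 and deposited raw counts per gene for each library. The use of strand and the treatment of multimapping reads are not given in the sources used here. The counts were analyzed with edgeR 4.0.16 in R 4.3.3 (TMM, filterByExpr with a minimum count of 10 and a total of 15, quasi-likelihood test, p adjusted by Benjamini-Hochberg over 18442 genes) in 1 fit of all 39 libraries over 8 groups, with 12 comparisons. CPM use TMM library sizes. Gene names, positions and exon lengths came from GENCODE M21 and promoter sequences from RefSeq (GRCm38.p6). Correlations used 100000 permutations, or all of them below 10 libraries, with scipy 1.17.1. The 10 genes and the mtDNA-encoded mRNAs were described throughout, and from each pathway list up to 3 genes per direction that passed with the same sign in all 4 injury comparisons, by size in Lepr-ctrl mice at 2 wpc. The 10 genes and the lists were chosen with earlier results of these data known. Alternatives were DESeq2 1.42.0, its size factors, other filters, library sizes without mtDNA-encoded genes, a term for sex, only the groups compared, each library left out, and the mouse as a replicate block. Nerves with the same mouse number come from the same mouse, and the correlation of their deviations from group means over 5000 genes was -0.116 to 0.567, above 0.1 in 14 of 17 mice. On simulated counts for injured against healthy Lepr-ctrl nerves at 2 wpc with 18442 genes, 78 of 100 genes changed 2-fold and 98 of 100 changed 4-fold were recovered, with 5 of 181 calls unchanged genes. The simulation gave every other gene 1 mean over all groups, and all its changes were upward. In the data 63.9% of all genes passed in that comparison, in both directions, so the recovery holds for a setting unlike the data. Counts cover sampling of reads only.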

Additional observations from a re-analysis of the deposited data

Results flagged for a closer look

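Among 88 groups of 4 to 6 libraries tested for a value far from the rest by Dixon's test, 14 held one, where chance gives about 1 in 20. Of the mtDNA share, these were 30.5% in SLRKO2wpc144i (Lepr-ctrl), 14.996% in WT-173Sni (low) and 3.61% in KO-177Snc. KO-177Snc also had the highest Tfam of its group (26.0 CPM), and KO-177Sni the lowest Ppargc1a (4.63 CPM). SLRKO2wpc126i (Lepr-cKO), which holds skeletal muscle transcripts, had the highest Ppargc1b (3.93 CPM) and Tfam (36.7 CPM) of its group. In the same group SLRKO2wpc138i had the lowest Tfb2m (3.85 CPM) and SLRKO2wpc135i the lowest Polrmt (22.3 CPM). Among healthy nerves, Polrmt was high in SLRKO2wpc147c (26.9 CPM), Nrf1 low (26.9 CPM) and Gabpa high (65.4 CPM) in SLRKO2wpc138c, and Gabpa high in WT-171Snc (60.1 CPM) and Esrra in WT-170Snc (104 CPM).

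The crush response of Lepr-ctrl mice differed between 4 and 2 wpc by a test of the difference itself for Polrmt (-0.84 on the log2 scale) and Pprc1 (-0.68). These were different mice, so week and set of mice cannot be told apart.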

How the results depend on the processing

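For counts of the 10 genes passing, mtDNA shares and the correlation, 295 alternative values kept their direction and side of the threshold, 23 moved by more than 1.5 times, 12 lost the threshold and 1 turned. For single genes, 715 kept both, 34 lost the threshold, 21 gained it and 18 turned. With the limit of an absolute log2 fold change over 1, the number of the 10 genes passing was 0 in all 4 injury comparisons and for the time difference in Lepr-ctrl mice. Without a filter on low counts it was 2 in Lepr-ctrl mice at 2 wpc. Leaving out 1 library at a time, it was 2 to 4 and 3 to 5 at 2 wpc, and 4 to 4 and 2 to 4 at 4 wpc, for Lepr-ctrl and Lepr-cKO mice, and for the time difference 1 to 3 and 0 to 1. With the mouse as a replicate block, 1 gene passed for the time difference in Lepr-ctrl mice, Ppargc1b in Lepr-ctrl mice at 2 wpc turned to -0.044, Ppargc1a in the same comparison rose to 1.17 (adjusted p = 0.00457), and the block changed no other call of the 10 genes beyond those given with each gene. For the time difference in Lepr-cKO mice, 1 gene (Pprc1) passed with library sizes without mtDNA-encoded genes, with at least 10 counts in every library, with a term for sex and with DESeq2. In a fit of only the groups compared, Pprc1 in Lepr-ctrl (adjusted p = 0.0473) and Esrra in Lepr-cKO mice (adjusted p = 0.0188, edgeR) also passed at 4 wpc, and with DESeq2 Ppargc1a in Lepr-cKO mice at 2 wpc (adjusted p = 0.0494). Values of uncalled genes that turned were small. Nrf1 in Lepr-cKO mice at 2 wpc turned to 0.00041 with library sizes without mtDNA-encoded genes. Leaving out 1 library, Nrf1 ran from -0.023 to 0.14 and -0.077 to 0.014 at 2 wpc in Lepr-ctrl and Lepr-cKO mice and from -0.028 to 0.069 in Lepr-cKO mice at 4 wpc. Gabpa ran from -0.17 to 0.035 and -0.0035 to 0.16 at 2 wpc, Esrra from -0.067 to 0.33 in Lepr-ctrl mice at 4 wpc and Ppargc1b from -0.14 to 0.20 in Lepr-cKO mice at 4 wpc.

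Leaving out 1 library, injured minus healthy mtDNA share was 7.56 to 13.2 and 10.2 to 15.9 percentage points at 2 wpc and 15.7 to 17.1 and 5.19 to 10.3 at 4 wpc, the lowest of these without KO-177Sni and the highest Lepr-cKO value at 4 wpc without KO-169Sni. With 3 injured libraries left at 4 wpc the exact test could not pass after adjustment, which says nothing about stability. With 4 against 4 libraries the Lepr-cKO call was lost without a healthy library other than KO-177Snc (exact permutation test, adjusted p = 0.0686). Lepr-cKO minus Lepr-ctrl was -1.53 to 5.84 at 2 wpc, turning to -1.53 without SLRKO2wpc135i, and -10.4 to -5.31 at 4 wpc. The causes were not tested. Depth limits Ppargc1b (8 to 139 counts) most. The injured Lepr-ctrl libraries at 4 wpc (10905806 to 17640587 counts) were each shallower than every library of the other Lepr-ctrl groups, so that depth and group cannot be told apart there.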
